A study of Saccharomyces cerevisiae with 7 samples.

Results

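The regions described here are the short gaps between pairs of protein-coding genes of Saccharomyces cerevisiae that are transcribed away from each other. The pairs were chosen by the orientation and spacing of consecutive mRNAs in the deposited transcript annotation: the first mRNA lies on the minus strand, the second on the plus strand, and 1 to 400 nt separate their transcripts. The rule found 219 pairs, holding 438 of the 3000 annotated mRNAs (14.6%), among 768 divergent pairs and 2984 pairs of consecutive mRNAs in all. Of the other divergent pairs, 540 lay more than 400 nt apart and 9 overlapped. Because gap and orientation chose the pairs, and the 5' ends of the transcripts set the gap, gap sizes are given as a description without a test.

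The series probed RNA structure in polyadenylated RNA from log-phase yeast grown at 23 °C, refolded in vitro and cut with RNase V1 (4 libraries), which prefers paired bases, or nuclease S1 (3 libraries), which cuts single-stranded RNA. No strain or genotype is given in the labels, and sample titles speak of total RNA where the other fields say polyadenylated. The values analysed were annotation coordinates. Cleavage values were not analysed here, so no value has a replicate error or a sequencing depth, and intervals cover counting error over genes or pairs only. Genes and pairs are not replicates of a condition.

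In budding yeast, most promoters lie in a stretch of DNA depleted of nucleosomes, from which RNA polymerase II can start on either strand. General regulatory factors such as Reb1 and Abf1 bind such stretches and keep nucleosomes off them, and stiff tracts of A or T do so too. A divergent gene pair can draw both of its transcripts from 1 such stretch, and the galactose and histone pairs are the textbook cases of partners that share a task.

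Sequences of the gaps were read from the R64 reference at its own positions by gene name, for the 213 pairs whose start codons lie the same distance apart in R64 and in the annotation. The first set shows the 5 matches to the Reb1 motif TTACCCG nearest the middle of a gap, since the position of this motif is one of the results below. Capitals mark the match, all sequences are the plus strand of R64, and CGGGTAA is the same motif on the other strand.
SFB2-ALG11, chrXIV:538043-538072: tctatgtccttCGGGTAAgctaaacaaaaa
COX17-DRS1, chrXII:131563-131592: ataacattatcCGGGTAAtgatttgaaaaa
ARL1-UBS1, chrII:568640-568669: aaagggctctgTTACCCGtcctgtacgatg
PUS1-NIP7, chrXVI:153307-153336: gcggctaatagTTACCCGcatcaaaataat
UMP1-SWD3, chrII:582281-582310: ccactgcatggTTACCCGaggagtgaaaaa

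The second set shows the 5 matches to the core of the Abf1 motif nearest the middle of a gap. That core is TCA, then 6 unspecified bases, then ACG, or its complement on the other strand. Capitals again mark the match.
CMI8-MRPL28, chrIV:1385895-1385924: tgagaattaCGTATACAGTGActatcgtat
SCL1-MPO1, chrVII:475362-475391: tgtgcccttCGTCTATTGTGAtatcataat
MRPL8-COA3, chrX:316589-316618: ttcccgcctCGTACGCGGTGAcagacaaag
RPC82-QCR2, chrXVI:919173-919202: aatttctgaTCATTCCCAACGaaccaatag
YPT1-TUB2, chrVI:56143-56172: ggcgccgggTCACGATATACGtgtacagtg

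The third set shows every gap that held both a proteasome gene and the motif GGTGGCAAA, the element bound by Rpn4, the activator of proteasome genes. TTTGCCACC is the same motif on the other strand.
YPI1-RPN11, chrVI:153259-153288: ggacctccaaGGTGGCAAAttcacaagaaa
RPT6-ALG13, chrVII:411352-411381: tattacaactTTTGCCACCtcgctcgcatt
RPT4-GCD1, chrXV:813802-813831: ctttcccttcGGTGGCAAAttccactattt
SCL1-MPO1, chrVII:475337-475366: ctatccttacGGTGGCAAAttggtgtgtgc
RPN6-PMT1, chrIV:286790-286819: tctaccaacaTTTGCCACCcttggaaccag

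The fourth set comes from the 3 pairs whose partners stand on the same functional gene list, with motifs picked after the matches were seen. GATGAG is the PAC element and AAAATTTT the core of the RRPE element, both known from promoters of ribosome biogenesis genes, and TGACTCA is the site of Gcn4, the activator of amino acid synthesis. CTCATC and TGAGTCA are PAC and the Gcn4 site on the other strand. Among the gaps with a gene of the aminoacyl-tRNA synthetase list, only DED81-YHR020W held the full Gcn4 site.
RRP3-SSF1, PAC, chrVIII:229221-229250: tagacgaagaagCTCATCtcatcgcgatat
NSA2-LCP5, PAC, chrV:414293-414322: ttaaaagtgcatCTCATCgctgtccggaaa
NSA2-LCP5, RRPE, chrV:414309-414338: tcgctgtccggAAAATTTTtcatcggattg
DED81-YHR020W, Gcn4, chrVIII:143802-143831: taagcgatgctTGAGTCActgaatgtcttg

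The gaps clustered around a common size. The median gap was 222 nt (quartiles 183.5 and 287.5 nt, range 5 to 396 nt), and 108 of the 219 gaps (49.3%, 95% Wilson interval 42.8 to 55.9%) were 150 to 249 nt long. Only 7 were under 100 nt. The count per 50 nt rose from 26 pairs at 101 to 150 nt to 63 at 201 to 250 nt, then fell to 31, 20 and 27 in the next classes up to 400 nt.

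**Figure D1:**
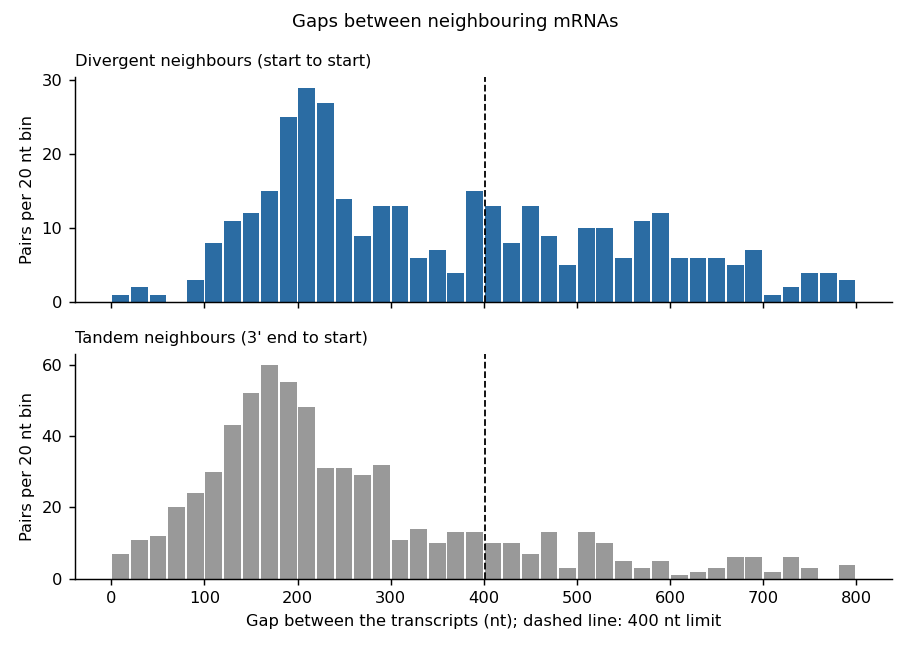
Number of pairs per 20 nt of gap, for divergent neighbours (upper panel, start to start) and tandem neighbours (lower panel, 3' end of the first mRNA to the start of the second), over pairs that are neighbours in the R64 reference and gaps of 1 to 800 nt. The dashed line is the 400 nt limit. Divergent gaps peak at 201 to 220 nt and thin out below 100 nt, while tandem gaps peak at 161 to 180 nt and are more frequent below 100 nt.

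The limit of 400 nt does not fall in a natural break. Just inside it were CTH1-GIR2 and NOP6-SHR3 at 396 nt each and NAT3-RPS23B and MCK1-MRPS18 at 395 nt each. The 3 just outside were BRE4-PTP1 at 401 nt and EGD2-MDM31 and ALG5-NEW1 at 402 nt each. With these 3 included, 27 divergent pairs had gaps of 401 to 450 nt, as many as had gaps of 351 to 400 nt.

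The annotation does not list every yeast gene, so neighbours were checked in R64. Of the 219 pairs, 215 (98.2%) were also next to each other among the protein-coding genes of R64. The exceptions were THG1-YGR026W, CUE4-TSL1, NSG2-CUZ1 and TMH18-MRPL51. Among all 428 divergent pairs that are R64 neighbours, the 215 made up 50.2% (45.5 to 54.9%). Tandem R64 neighbours were 1 to 400 nt apart in 546 of 749 cases (72.9%), with a median gap of 188 nt (quartiles 136 and 249.25 nt) within that range. Of the 540 distant divergent pairs set beside the close ones, 205 were R64 neighbours, so many of their gaps hold genes that the annotation does not list.

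The smallest gap, 5 nt, lay between PML1, which encodes a subunit of a pre-mRNA retention and splicing complex, and MEU1, which encodes methylthioadenosine phosphorylase (chromosome 12, 177566 to 177570 in the annotation, for which no genome build is named). Their start codons were 191 nt apart, and 5' UTRs of 150 and 36 nt filled nearly all of that. YPT10, a Rab GTPase gene, and TSC10, a gene of sphingolipid synthesis, were separated by 31 nt on chromosome 2 (738491 to 738521), with 5' UTRs of 126 and 55 nt. PCT1, a gene of phosphatidylcholine synthesis, and YCH1 followed at 34 nt, with 5' UTRs of 130 and 324 nt. In SAD1-YFR006W, 42 nt apart, the 5' UTRs were 47 nt for the splicing gene and 181 nt for its partner. In each of these 4 pairs at least 1 of the 5' UTRs exceeded 120 nt.

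The other 6 of the 10 smallest gaps were 85 to 103 nt. BOL3 and BOL1, both of the BolA family of mitochondrial iron-sulfur cluster proteins, were 85 nt apart on chromosome 1, and no 5' UTR was listed for BOL1. The cytochrome oxidase assembly gene COA1 and the mitofission gene ATG44 were also 85 nt apart, and no 5' UTR was listed for ATG44. MDY2 and SHR5 followed at 92 nt, RUB1 and MTQ2 at 101 nt, SPE4 and YLR146W-A at 101 nt, and HUB1 and ABZ1 at 103 nt. RUB1 and HUB1 both encode ubiquitin-like proteins.

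Where a 5' UTR is not listed, the transcript begins at the start codon and the gap is an upper bound. Both 5' UTRs were listed in 188 pairs, 1 in 30 pairs, and neither in 1 pair, MATALPHA2-MATALPHA1, the mating-type regulators, 263 nt apart. The median gap was 222 nt in the 188 pairs and 222 nt in the other 31. Measured between start codons, the distance had a median of 309 nt (quartiles 256 and 445 nt). It ran from 132 nt in BOL3-BOL1, 144 nt in SPE4-YLR146W-A and 147 nt in COA1-ATG44 to 793 nt in NFU1-PTM1, 820 nt in RPS29B-TSR1 and 1093 nt in IPT1-SNF11.

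**Figure D2:**
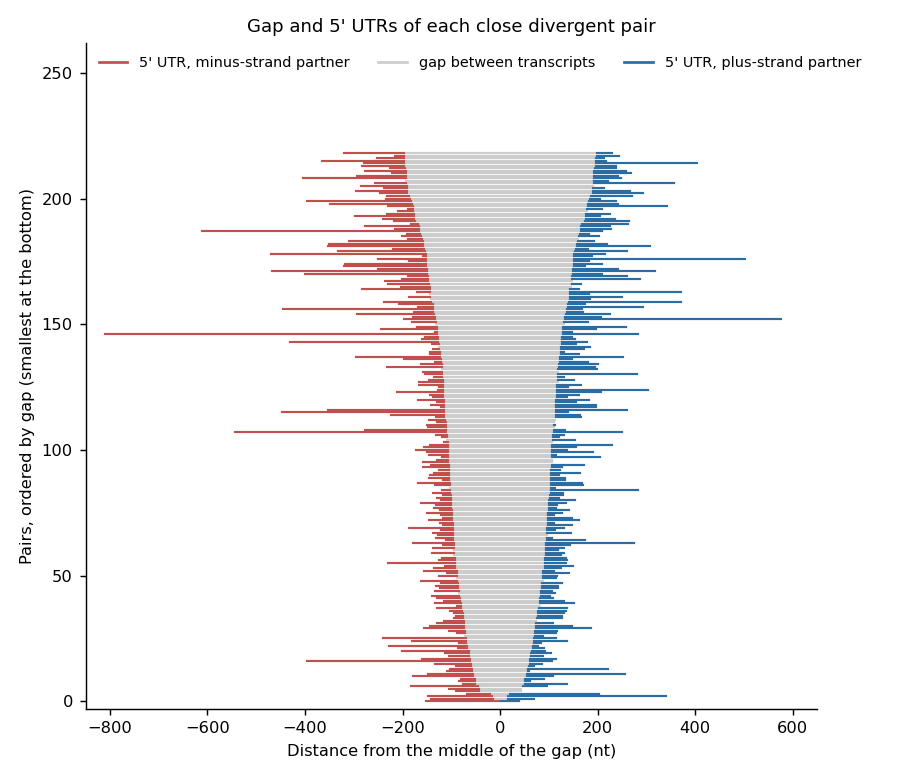
Each of the 219 pairs is 1 horizontal line, ordered by gap from 5 nt at the bottom to 396 nt at the top and centred on the middle of the gap. Grey is the gap, red the 5' UTR of the minus-strand partner and blue that of the plus-strand partner, in nt. Long 5' UTRs stand mostly on 1 side of a pair only.

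The paired mRNAs mostly had short 5' UTRs. Their median was 45 nt (quartiles 27 and 77.5 nt, 406 mRNAs), against 55 nt (31 and 102 nt, 965 mRNAs) in divergent pairs more than 400 nt apart and 50 nt in all mRNAs. The 95% order-statistic interval of the median was 42 to 49 nt for the close pairs and 51 to 60 nt for the distant ones. A longer 5' UTR makes the gap shorter, so this measure is not independent of the choice of pairs. Minus-strand partners (median 44 nt, 207 mRNAs) and plus-strand partners (46 nt, 199 mRNAs) had similar medians.

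Pairs at the common spacing had the shortest 5' UTRs. The median was 36 nt (interval 33 to 41 nt, 199 mRNAs) where the gap was 150 to 249 nt. It was 48.5 nt (41 to 67 nt, 62 mRNAs) in shorter gaps and 58 nt (49 to 68 nt, 145 mRNAs) in longer ones. The gap is what both 5' UTRs leave of the start codon distance. The classes are thus built from the lengths compared, and these medians are a description only.

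Within a pair, the shorter 5' UTR had a median of 31 nt and the longer one of 65 nt (188 pairs with both listed). The lengths lay within 2-fold of each other in 81 pairs (43.1%, 36.2 to 50.2%), a share close to the 44.3% of divergent pairs more than 400 nt apart (192 of 433). Both were 50 nt or less in 72 pairs (38.3%), exactly 1 was 100 nt or more in 57 pairs (30.3%), and both were in 8 (4.26%). In 32 pairs the 5' UTRs together were longer than the gap between them. Across the 188 pairs the partners' lengths had a Spearman rho of 0.22, against 0.08 across 433 distant pairs. Partners share the gap whose size chose them, so the former value is a description only.

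The longest 5' UTR belonged to IPT1, a sphingolipid synthesis gene, at 682 nt. IPT1-SNF11 is 1 of the 6 pairs, with SAD1-YFR006W and FIS1-EFM4, whose start codon distance differs from R64, so its lengths rest on start codons that R64 does not share. Its partner SNF11, which encodes a subunit of a chromatin remodeller, had 154 nt, and the gap was 257 nt. The difference of 528 nt was the largest of any pair. RPS29B, a ribosomal protein gene, followed with 445 nt against 42 nt in TSR1, a ribosome assembly gene. The RPS29B 5' UTR holds the splice donor motif GTATGT followed by the branch point motif TACTAAC, and whether it contains intron sequence was not tested.

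ODC2, a mitochondrial carrier gene, had 442 nt against 63 nt in MCT1. NFU1, a gene of iron-sulfur cluster transfer, had 433 nt against 140 nt in PTM1, and NGR1, an RNA-binding protein gene, had 350 nt against 99 nt in AME1. None of ODC2, NFU1 and NGR1 held that pair of splice motifs in its 5' UTR. XRN1-NUP49 also ranked among the 5 largest differences, with 333 nt for the exonuclease gene and 24 nt for the nucleoporin gene.

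At the other extreme, EFM4, MSK1 and YAE1 were listed with a 5' UTR of 1 nt each, GTF1 with 3 nt and NTA1 with 5 nt. Their partners FIS1, MLF3, RFC2, NOP7 and RPA12 had 51, 38, 30, 19 and 36 nt. Both 5' UTRs were 20 nt or less in 5 of 188 pairs.

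Of the measures that the choice of pairs did not use, 3' UTRs and coding regions were somewhat shorter than in distant divergent pairs. The 3' UTRs of paired mRNAs had a median of 98 nt (order-statistic interval 93 to 103 nt, 426 mRNAs), against 111 nt (105 to 118 nt, 1036 mRNAs) in distant divergent pairs and 106 nt in all mRNAs. Coding regions had a median of 961.5 nt (900 to 1062 nt), against 1098 nt (1044 to 1161 nt) in distant pairs. The intervals did not overlap for the 3' UTRs and did for the coding regions. No test was made over genes. An intron of at least 10 nt was annotated in 22 of 438 paired mRNAs (5.02%, 3.34 to 7.49%), against 7.59% in distant pairs and 6.63% in all mRNAs, and 5 of the 22 were cytosolic ribosomal protein genes.

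At their 3' ends, 133 paired mRNAs faced a convergent R64 neighbour and 77 of these overlapped it (57.9%, 49.4 to 65.9%), a share near the 53.8% of all convergent R64 neighbours. Of 113 with a tandem neighbour downstream, 4 overlapped it (3.54%).

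Partners seldom stood on the same functional list. With 30 functional gene lists, both partners stood on 1 list in 3 of 219 pairs (1.37%, 0.467 to 3.95%). The shares were 3.15% (17 of 540) in divergent pairs more than 400 nt apart, 1.56% in convergent pairs and 1.80% in tandem pairs. Most of the 17 distant pairs were pairs of cytosolic ribosomal protein genes or of histone genes. Of these 2 groups, only 7 of 138 and 0 of 10 mRNAs stood in close pairs. The gaps of the 17 ran from 585 to 6574 nt. Among pairs with both partners on some list, the values were 3 of 47 (6.38%, 2.19 to 17.2%) for close pairs and 17 of 104 (16.3%, 10.5 to 24.6%) for distant ones. The remaining pairs could not be counted as sharing a list, even where the partners are related. Examples are LOA1-TAZ1, both genes of lysophospholipid acyltransferases, and the mating-type regulators MATALPHA2-MATALPHA1.

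The 3 pairs were RRP3-SSF1, NSA2-LCP5 and DED81-YHR020W. RRP3 encodes an RNA helicase of small ribosomal subunit maturation and SSF1 a factor of the large subunit. Their transcripts were 236 nt apart, with 5' UTRs of 28 and 33 nt. The gap held 2 overlapping PAC matches, 167 and 172 nt from the RRP3 transcript, of which only the first is in capitals above. NSA2, a large subunit maturation factor gene, and LCP5, a small subunit one, were 255 nt apart, with 5' UTRs of 26 and 20 nt, and that gap held 2 PAC and 2 RRPE matches. In both pairs the 5' UTRs differed by 5 to 6 nt.

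DED81 encodes the asparaginyl-tRNA synthetase and YHR020W the prolyl-tRNA synthetase. They were 286 nt apart, with 5' UTRs of 43 and 108 nt. The Gcn4 match printed above lay 68 nt from the YHR020W transcript and 211 nt from the DED81 transcript, and an Abf1 core match lay 117 nt from DED81.

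Shared terms were also rare, but not rarer than in distant pairs. R64 attaches experiment-based Gene Ontology terms to 2945 of the 3000 genes, without stating which aspect a term belongs to. Partners shared a term used by at most 200 genes in 9 of 210 close pairs with terms on both sides (4.29%, 2.27 to 7.94%), against 3.63% in distant divergent, 3.34% in convergent and 3.67% in tandem pairs. BOL3 and BOL1 shared mitochondrial matrix and protein maturation. RBG1 and FUN12, which encode a GTPase and translation initiation factor eIF5B, shared GTP binding and stress granules. YPT1 and TUB2, the genes of a Rab GTPase and beta-tubulin, shared GTPase activity. BCS1 and ARH1 shared the mitochondrial inner membrane.

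The textbook divergent pairs that could be measured lay mostly outside the limit. HTA2-HTB2, HHT2-HHF2, HHF1-HHT1 and HTB1-HTA1, the core histone pairs, had gaps of 585, 595, 612 and 720 nt. The pairs of cytosolic ribosomal protein genes RPS16B-RPL13A, RPS15-RPP2A, RPS22A-RPL39, RPL24A-RPL30 and RPL13B-RPS16A had gaps of 588, 589, 591, 620 and 676 nt. RPA43-RPA190, both genes of RNA polymerase I, were 636 nt apart. Of the 17 distant pairs on a shared list, the smallest gap was 585 nt. MRM1-HIS3, a mitochondrial rRNA methyltransferase gene and a histidine synthesis gene, was inside the limit, at 192 nt with 5' UTRs of 35 and 10 nt. CYC1 and UTR1 are convergent in the annotation. It does not list both partners of GAL1-GAL10 or of SNZ1-SNO1, so the gaps of these pairs could not be measured.

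The gene groups differed in how many of their mRNAs stood in close divergent pairs, set against 14.6% of all mRNAs. Some lists of core cellular machinery stood above that value, and others did not. Of the mRNAs on the mitochondrial ribosomal protein list, 16 of 60 did (26.7%, 17.1 to 39.0%). So did 11 of 38 on the proteasome list (28.9%, 17 to 44.8%) and 25 of 102 on the ribosome biogenesis list (24.5%, 17.2 to 33.7%). On the DNA replication and repair list, 10 of 33 did (30.3%, 17.4 to 47.3%). These intervals lay above 14.6%, as did that of the aminoacyl-tRNA synthetase list, with 7 of 23 (30.4%, 15.6 to 50.9%). The splicing (6 of 20) and peroxisome (4 of 12) lists had shares of 30% and 33.3%, with intervals that include 14.6%.

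**Figure D3:**
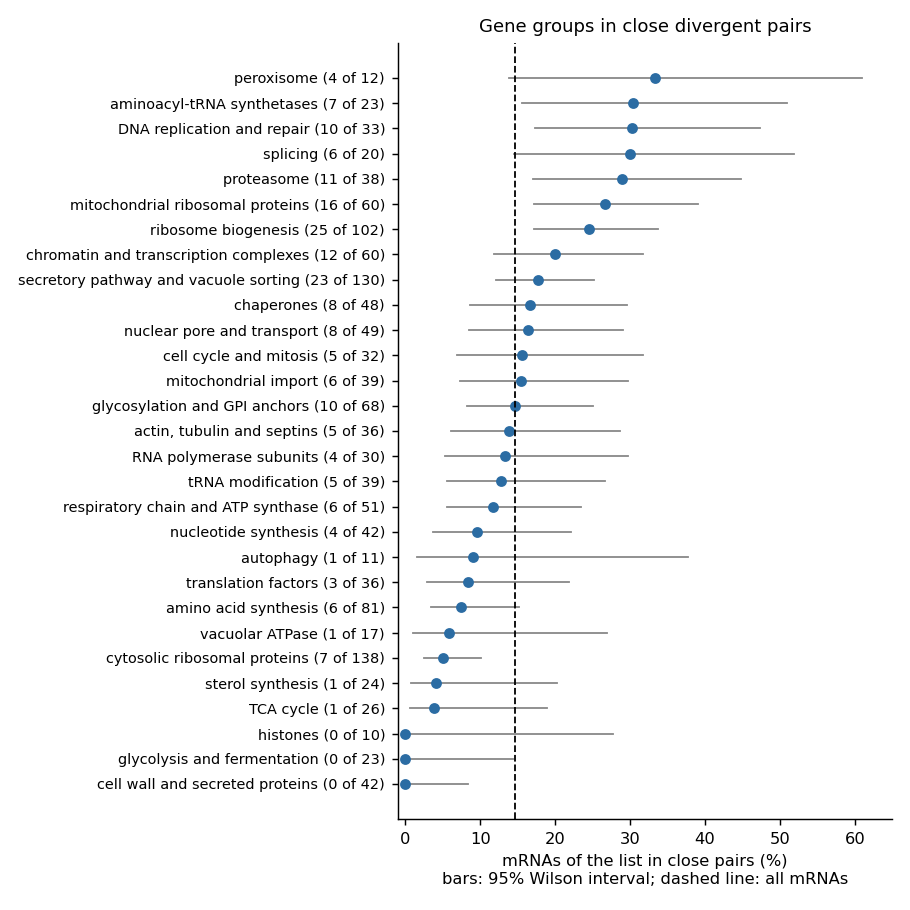
Share of each gene list's annotated mRNAs that stand in close divergent pairs (points, in %), with 95% Wilson intervals, for lists of at least 10 annotated mRNAs. The dashed line is the 14.6% of all mRNAs. The proteasome, mitochondrial ribosomal protein and ribosome biogenesis lists lie to its right, and glycolysis, cell wall and cytosolic ribosomal protein lists to its left.

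Several metabolic groups, the cytosolic ribosomal proteins and some other machinery lists stood below 14.6%. The machinery lists include translation factors (3 of 36, 8.33%) and the respiratory chain and ATP synthase (6 of 51, 11.8%). They also include tRNA modification (5 of 39, 12.8%) and RNA polymerase subunits (4 of 30, 13.3%). The intervals of these 4 lists include 14.6%. None of 42 cell wall and secreted protein mRNAs was in a close pair (a count of 0 allows up to 7.14%, taken as 3 mRNAs of the total, and the Wilson bound drawn in the plot of gene groups is 8.38%), none of 23 glycolysis and fermentation mRNAs (up to 13%, Wilson bound 14.3%) and none of 10 histone mRNAs (up to 30%, Wilson bound 27.8%). Of cytosolic ribosomal protein mRNAs, 7 of 138 were (5.07%, 2.48 to 10.1%). The TCA cycle list had 1 of 26, IDP1, and sterol synthesis 1 of 24, MVD1. Amino acid synthesis had 6 of 81 (7.41%, 3.44 to 15.2%). The intervals of the last 3 groups and of the histones include 14.6%. The lists were built from gene-name patterns, so a few members only share a name with the group. They also miss genes under other names that stand in close pairs. Examples are CRS1, a cysteinyl-tRNA synthetase gene, QRI5, a mitochondrial ribosomal protein gene, and the splicing gene SAD1. The shares are therefore those of the lists and not of complete groups. The lists were not tested against each other, and they were written with earlier results of these data known.

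The 16 genes of the mitochondrial ribosomal protein list stood in 16 different pairs. Their gaps ran from 123 nt in MRPL31-CMC1 to 395 nt in MCK1-MRPS18, with a median of 213 nt. Their 5' UTRs had a median of 38 nt (15 listed), against 36 nt in the 36 mRNAs of that group outside the pairs with a listed 5' UTR. Since the 5' ends set the gap, this too is a description only. Several partners serve other mitochondrial tasks, among them COA3, a cytochrome oxidase assembly gene, in MRPL8-COA3 (201 nt). Others do not, such as IMP3, a nucleolar gene, in MRPL6-IMP3 (200 nt) and DBP6, a helicase gene of ribosome assembly, in RSM19-DBP6 (237 nt).

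The 11 proteasome list genes stood in 11 pairs with a median gap of 195 nt (126 to 364 nt). They cover core particle subunits (PUP3, SCL1), base ATPases (RPT4, RPT6), other regulatory particle subunits (RPN6, RPN10, RPN11) and assembly factors (UMP1, PBA1, ADD66, IRC25). None was paired with another proteasome gene. The partners include the translation factor gene GCD1 with RPT4 (202 nt), the protein mannosyltransferase gene PMT1 with RPN6 (240 nt) and the glycosylation gene ALG13 with RPT6 (195 nt).

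The 25 ribosome biogenesis genes stood in 23 pairs with gaps of 190 to 396 nt (median 244 nt) and a median 5' UTR of 28 nt, against 39 nt in the 69 mRNAs of that list outside the pairs with a listed 5' UTR. Because the 5' ends set the gap that chose the pairs, these 5' UTR medians are a description only. The 7 cytosolic ribosomal protein genes sat at the wider end, with gaps of 252 to 395 nt and a median of 329 nt. The 10 replication and repair genes sat at the narrower end, with a median of 174 nt. Among them, the replisome gene PSF3 was 121 nt from PEX11, the clamp loader gene RFC2 was 167 nt from YAE1 and the primase gene PRI1 was 154 nt from MSL1.

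The motifs known for these groups were found between the transcripts. The Rpn4 element stood in 6 of 213 gaps (2.82%, 1.30 to 6.01%), and 5 of the 6 flanked a proteasome gene: RPN11, RPT6, RPT4, SCL1 and RPN6. The sixth was NSG2-CUZ1, and CUZ1 encodes a protein known to interact with the proteasome. The element was present in 5 of 11 gaps with a proteasome list gene (45.5%, 21.3 to 72.0%) and in 1 of 202 other gaps (0.495%). Upstream of the 27 proteasome list mRNAs outside the pairs, 77.8% held it at the same window lengths. It lay nearer the proteasome gene's transcript than the partner's in each of the 5 gaps, for example 55 nt from RPT6 and 131 nt from ALG13, and 62 nt from RPN6 and 169 nt from PMT1.

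PAC was found in 61 gaps (28.6%, 23 to 35%) and the RRPE core in 40 (18.8%, 14.1 to 24.6%). In windows of the same lengths upstream of 374 mRNAs of distant divergent pairs that are R64 neighbours, the shares were 17.6% and 9.71%, and upstream of 2272 mRNAs outside the pairs with a listed 5' UTR they were 16.9% and 11.1%. A gap serves 2 transcripts and the comparison windows serve 1, so the shares are set side by side and not tested. Of gaps with a ribosome biogenesis gene, 20 of 23 held PAC (87.0%, 67.9 to 95.5%), 15 held the RRPE core (65.2%) and 13 held both. Of the other 190 gaps, 41 held PAC (21.6%) and 12 held both (6.32%). Upstream of the 69 ribosome biogenesis mRNAs outside the pairs that had a listed 5' UTR, 82.6% of windows of the same lengths held PAC and 78.4% the RRPE core.

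Among the 12 other gaps with both elements, RPF2-NUP133, PUS1-NIP7 and RPA49-CRS1 contain genes of ribosome assembly or RNA polymerase I that were not on the list. Of the 13 gaps with a list gene and both elements, NSA2-LCP5 was the 1 whose partners were both on the list. The pair SEC62-NOG1 (244 nt) joins a translocation channel gene to a large subunit assembly GTPase gene, COX17-DRS1 (253 nt) a copper chaperone gene to a helicase gene of ribosome assembly, and TSC13-NOP1 (260 nt) a fatty acid elongation gene to the fibrillarin gene.

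**Figure D4:**
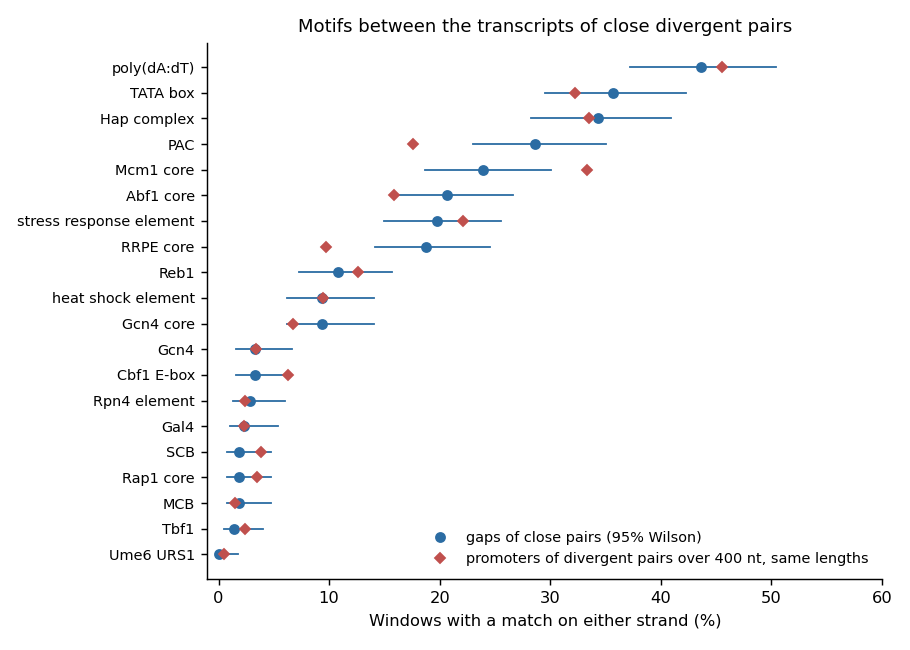
Share of windows with at least 1 match on either strand, for 20 motifs. Blue points with 95% Wilson intervals are the 213 gaps, and red diamonds are windows of the same lengths upstream of 374 mRNAs of divergent pairs more than 400 nt apart. For PAC and the RRPE core the diamonds lie left of the interval (17.6% and 9.71%), and for the Mcm1 core right of it (33.3%).

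General regulatory factor motifs were about as frequent in the gaps as elsewhere. Reb1 matches stood in 23 gaps (10.8%, 7.30 to 15.7%) against 12.6% of comparison windows. Abf1 core matches stood in 44 (20.7%, 15.8 to 26.6%) against 15.9%. No gap held both, and 67 held 1 of them (31.5%, 25.6 to 38.0%). The TATA box motif TATAAA was in 76 gaps (35.7%) against 32.3%, and a tract of 7 A or 7 T in 93 (43.7%) against 45.5%.

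Reb1 and Abf1 matches lay mostly near the middle, a measure chosen after their positions were seen. Of 47 Abf1 core matches, 30 (63.8%, 49.5 to 76.0%) lay in the central zone, from 40% to 60% of the way across the gap, as did 12 of 23 Reb1 matches (52.2%, 33.0 to 70.8%). For TATAAA the count was 13 of 99 (13.1%, 7.84 to 21.2%), for PAC 12 of 80 (15.0%, 8.79 to 24.4%) and for CCAAT, the Hap complex motif, 23 of 94 (24.5%, 16.9 to 34%). The RRPE core, with 16 of 45 (35.6%, 23.2 to 50.2%), and the Mcm1 core, with 27 of 67 (40.3%, 29.4 to 52.3%), were between them, and their intervals overlap those of Reb1 and the Abf1 core. The CCAAT interval overlaps that of Reb1 too. In the central zone the MCB element had 3 of 6 matches, the Rap1 core 2 of 4 and the Tbf1 motif 3 of 3.

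**Figure D5:**
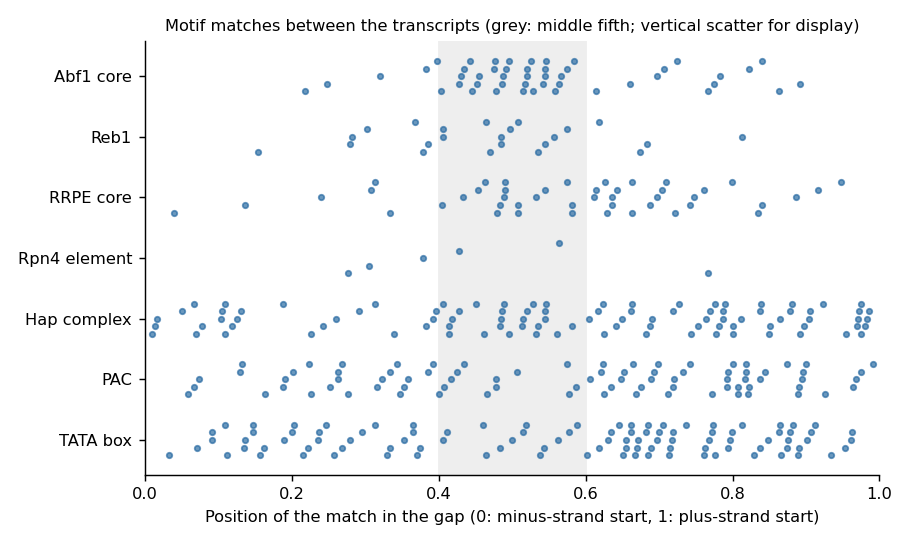
Position of each motif match across the gap, from the start of the minus-strand transcript (0) to that of the plus-strand transcript (1), 1 point per match, with vertical scatter for display only. The grey band is the central zone from 40% to 60%. Of 47 Abf1 core matches 30 fall in the band, and of 99 TATA box matches 13.

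In nt, Abf1 core matches lay a median of 97 nt (quartiles 80.5 and 106 nt) from the nearer transcript start and Reb1 matches 96 nt (80 and 110.5 nt). TATAAA lay 60 nt (32.5 and 83.5 nt) and PAC 62 nt (35.75 and 85.25 nt) from it. In 400 nt upstream of the distant divergent mRNAs, the nearest match was taken and only 1 start is measured. The medians there were 174 nt for the Abf1 core and 134 nt for Reb1. A distance to the nearer start of a gap cannot reach beyond the middle of that gap, while upstream it can approach 400 nt. The medians of gaps and upstream windows are therefore not comparable. Whether matches lie closer to starts in close pairs was not tested.

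The printed examples show the symmetry. In SFB2-ALG11, a COPII coat gene and a mannosyltransferase gene 212 nt apart, the Reb1 match lay 102 nt from one transcript and 103 nt from the other. In CMI8-MRPL28 (248 nt) the Abf1 core match lay 117 and 119 nt away. In RPC82-QCR2 (212 nt), genes of RNA polymerase III and of the cytochrome bc1 complex, the distances were 97 and 103 nt. These 10 were picked as the most central matches, so their symmetry is by choice. The exceptions include TMH18-MRPL51 and HTC1-RGL1, whose Abf1 core matches lay 29 and 23 nt from the plus-strand transcript, and CWC21-KRE2, whose Reb1 match lay 18 nt from the minus-strand transcript. SCL1-MPO1 (228 nt) held an Rpn4 element 82 nt and an Abf1 core match 106 nt from the SCL1 transcript.

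The gaps were AT-rich, with a median GC content of 36.7% (quartiles 34 and 40.2%, 213 gaps), against 38.0% in the 250 nt upstream of the 374 distant divergent mRNAs and 36.0% upstream of 2272 other mRNAs. In the 139 gaps of at least 200 nt, GC content was lowest 41 to 60 nt from a transcript start, at 34.8% (SE 0.65 over 278 sides), and higher in the first 20 nt (38.9%, SE 0.68). Upstream of distant divergent mRNAs the values at these distances were 33.5% and 36.8%. Tracts of at least 7 T on the plus strand lay on the side of the minus-strand partner in 42 of 65 cases (64.6%, 52.5 to 75.1%), and tracts of A on the side of the plus-strand partner in 38 of 67 (56.7%, 44.8 to 67.9%).

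Apart from the Mcm1 core, the other motifs had comparison shares inside the 95% interval of the gaps. The Gcn4 site stood in 7 gaps (3.29% against 3.36%), its core TGACTC, which the full site contains, in 20 (9.39% against 6.75%), and the E-box CACGTG of Cbf1 in 7 (3.29% against 6.30%). The heat shock element GAANNTTC was in 20 gaps (9.39% against 9.44%), the stress response element AGGGG in 42 (19.7% against 22.1%) and CCAAT in 73 (34.3% against 33.5%). The cell cycle elements ACGCGT (MCB) and CGCGAAA (SCB) were in 4 gaps each, the Rap1 core ACCCANACA in 4, the Gal4 site in 5, ACCCTAA (Tbf1) in 3 and AGCCGCCGA (the Ume6 site) in none, which allows up to 1.41%. The Mcm1 core was searched as CC and GG with any 6 bases between them, so a match need not be an Mcm1 site. It stood in 51 gaps (23.9%, 18.7 to 30.1%) against 33.3% of the windows of distant divergent mRNAs and 27.9% of those of the 2272 other mRNAs, and the second value lies inside the interval. A match is a run of letters and does not show that a factor binds there.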

How the data were processed

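The values used are genome coordinates that the authors deposited as an annotation of transcripts, exons and UTRs, counted from 1 per the labels' design text, with starts above ends on the minus strand. The method behind the UTR ends, the genome build and the aligner: not given in the sources used here. The 7 libraries were grouped by nuclease. Lengths, gaps and pairs were computed in Python 3.11.15 with numpy 2.4.6, and Wilson intervals with statsmodels 0.14.6. The rule for pairs and the functional lists and motifs were chosen with earlier results of these data known. Named pairs were the smallest gaps, those at the limit, those on 1 list, textbook pairs and extremes of 5' UTR and start codon distance; motif examples, motif positions, motifs beside gene groups, tracts, GC profile, 3' neighbours and list partners were chosen after their values were seen. Symbols matched R64 (2999 of 3000), whose sequence was read by gene name at R64 positions, since annotated positions differ from R64. Motifs were searched on both strands. Comparison windows started at the annotated transcript start. No test was made over genes; the planned term for processes used all Gene Ontology aspects. Counting of pairs and motifs was tested on made-up data.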

Additional observations from a re-analysis of the deposited data

How the results depend on the processing

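Alternatives were a 200 nt limit, R64 neighbours only, non-coding transcripts in the order, both 5' UTRs listed, no annotated intron, UTRs of at least 10 nt, terms used by at most 50 genes, lists without cytosolic ribosomal proteins, and motif windows between start codons. Restriction to both 5' UTRs for motifs, gaps of at least 150 nt and other comparison promoters were chosen after seeing the data. With the 200 nt limit, 78 pairs remained, the median gap was 162 nt and 0% of pairs stood on 1 list, all of which follow from the smaller limit. Between start codons, 50.7% of windows held TATAAA and 58.7% a tract of A or T, where the windows are longer. With all mRNAs outside the pairs as comparison, 38.2% of windows held TATAAA, and the cause was not tested. The other alternatives left each value within the 95% interval of the reported one, or within 1.5 times for the number of pairs, in 38 of 44 cases in all: 215 pairs with R64 neighbours only and 219 with non-coding transcripts, a median 5' UTR of 42 to 47 nt, and central shares of 50.0 to 57.1% for Reb1 and 65.2 to 67.4% for Abf1. Leaving out the cytosolic ribosomal protein list, counted among the 38, could not move the share of close pairs on 1 list. The 3 such pairs stand on other lists. Distant pairs, many of which stand on that list, were not recounted without it. No paired analysis was possible because only coordinates were analysed, which belong to no single library, and the planned comparison of the nucleases was not run. Depth could not be weighed. The 5' ends come from 1 annotation without an error, and unlisted genes limit the pairs.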

Other observations

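Some motifs had more matches on the plus-strand partner's side of the gaps and others on the minus-strand partner's side. TATAAA matches numbered 37 on the side of the minus-strand partner and 61 on that of the plus-strand partner, RRPE core matches 15 and 30, PAC matches 33 and 47, and CCAAT matches 36 and 58. Abf1 core matches numbered 20 and 27, Reb1 matches 14 and 9, heat shock elements 15 and 10, stress response elements 29 and 24, and Mcm1 core matches 39 and 28. Runs of 7 A or T, counted with overlaps, numbered 216 and 192. These counts were taken after the positions had been seen, several matches can share a gap, and the difference was not tested.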
